A study of Mus musculus with 2 samples.

Results

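The 7 enzymes of prostaglandin metabolism *Ptgs1*, *Ptgs2*, *Ptges*, *Hpgds*, *Ptgds*, *Ptgis* and *Hpgd* were followed through the cell types of mouse skin, out of 19059 genes that the probe panel measured. They were chosen by name, with their keratinocyte levels and ratios already known, so those values are given here as a description and support nothing. Whole dorsal skin of 1 wildtype C57BL/6J mouse was compared with that of 1 mouse lacking epiplakin (the *Eppk1* knockout, backcrossed into C57BL/6J). Neither mouse was treated. Each genotype is 1 punch of skin from 1 mouse, which allows no test between genotypes, and no p-values are printed. Cells of a whole-skin suspension were fixed and hybridized with pairs of probes, and ligated pairs were counted by their unique molecular identifiers (UMIs).

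Prostaglandins are short-lived lipid signals made from arachidonate that phospholipases free from membranes. The cyclooxygenases *Ptgs1* and *Ptgs2* turn arachidonate into the unstable intermediate PGH2. Terminal synthases then make the active products: *Ptges* gives PGE2, *Hpgds* and *Ptgds* give PGD2, and *Ptgis* gives prostacyclin. *Hpgd*, the 15-hydroxyprostaglandin dehydrogenase, takes the first step of their inactivation. In skin, *Ptgs1* is regarded as the constitutive and *Ptgs2* as the inducible cyclooxygenase, and PGE2 and PGD2 are both linked to inflammation and to the hair cycle.

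In the GRCm38 mouse genome, *Hpgd* lies at chr8:56294585-56321043 on the plus strand and *Hpgds* at chr6:65117293-65144908 on the minus strand. *Ptgs2* lies at chr1:150100031-150108227 on the plus strand. The other 4 lie on chromosome 2, *Ptgds* at chr2:25466709-25470046, *Ptges* at chr2:30889471-30929863 and *Ptgis* at chr2:167191805-167240604 on the minus strand, and *Ptgs1* at chr2:36230426-36252272 on the plus strand. The 250 bases before the RefSeq start of *Hpgd* (chr8:56294302-56294551, plus strand) and of *Hpgds* (chr6:65144731-65144980, minus strand) are shown from the GRCm38.p6 table, because these 2 enzymes passed the size rule in opposite directions in keratinocytes, each with 361 UMIs or more in either library. They are written 5′ to 3′ on the strand of the gene, and capitals mark the TATA box core (TATAAA), the CCAAT box and the GC box (GGGCGG) where found on either strand.
Hpgd: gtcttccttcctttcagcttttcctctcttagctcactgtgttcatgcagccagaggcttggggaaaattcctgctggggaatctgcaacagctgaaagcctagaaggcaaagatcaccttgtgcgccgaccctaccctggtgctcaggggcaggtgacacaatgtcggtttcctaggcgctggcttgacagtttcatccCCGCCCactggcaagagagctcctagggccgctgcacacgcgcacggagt
Hpgds: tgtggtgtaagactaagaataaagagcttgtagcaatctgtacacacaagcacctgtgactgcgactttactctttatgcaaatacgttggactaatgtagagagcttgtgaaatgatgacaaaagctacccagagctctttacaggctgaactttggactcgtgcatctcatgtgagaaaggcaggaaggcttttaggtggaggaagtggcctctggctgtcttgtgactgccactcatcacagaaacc
The *Hpgd* window held 1 match, GGGCGG on the opposite strand, and the *Hpgds* window held none of the 3 letter strings. Among 32851 windows of the same length, TATAAA was found in 12.4%, CCAAT in 33.8% and GGGCGG in 32.7%, each on either strand. A match is a description of the letters in this window only.

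The deposited tables held 9179 wildtype cells with 77638793 UMIs and 8811 knockout cells with 65118304 UMIs, and 8875 and 8617 cells passed the filters. Keratinocytes made up 62.3% of wildtype and 47.1% of knockout cells, fibroblasts 20.8% and 32.5%, and macrophages 8.60% and 12.8%. Levels are UMIs of a gene summed over the cells of a type, per 1000000 UMIs of that type (CPM). Differences are log2 of knockout over wildtype after adding 0.5 UMI to each sum, with exact 95% intervals that cover counting error only, and a ratio of 0.5 or more in size was called past the size rule. A gene is covered by its own set of probes, so levels are compared between cells and not between genes. The 14 keratinocyte markers summed to 59277 CPM in wildtype against 58827 CPM in knockout keratinocytes. *Eppk1* itself was counted at 3014 CPM in wildtype against 795 CPM in knockout keratinocytes (log2 ratio -1.92, interval -1.94 to -1.90). The direction matches the labels, but where its probes lie relative to the deleted part is not given in the sources used here. In all, 1211 droplet barcodes occurred in both libraries, whose cells carried a probe barcode for each mouse and shared droplets.

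In keratinocytes, *Hpgd* was lower and *Hpgds* higher in the knockout library, while the levels of *Ptgs1*, *Ptgs2* and *Ptges* differed by 0.12 or less on the log2 scale. Of the 6 enzymes with at least 50 keratinocyte UMIs, 1 was past the size rule upward (*Hpgds*) and 2 downward (*Hpgd* and *Ptgds*). Among all 11795 genes with that many UMIs, 7.65% were past it, 2.87% upward and 4.78% downward. The median log2 ratio of all these genes was -0.02. The enzymes were picked with these ratios known, so their count is not read against that share.

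**Figure D1:**
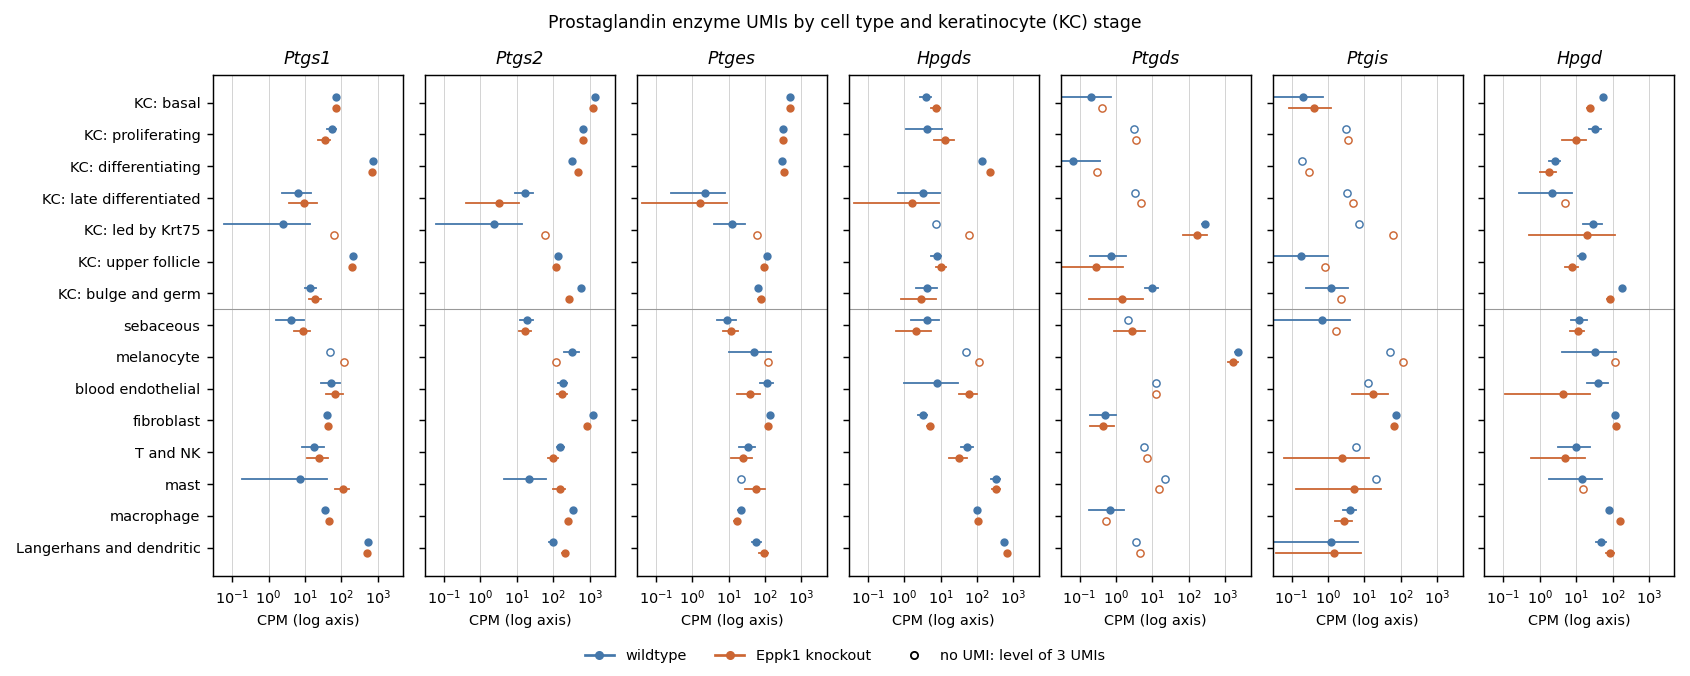
Levels of the 7 enzymes in CPM (log axis) in cell types and in keratinocyte stages, wildtype and knockout side by side, 1 library each; open circles mark a sum of 0 UMIs, drawn at the level of 3 UMIs. *Hpgds* was highest in Langerhans and dendritic cells and mast cells, and *Hpgd* in bulge and germ keratinocytes of the wildtype and in macrophages of the knockout.

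The enzymes were placed in different cells. Shares of UMIs, here and below, are of those in kept cells, and the cap of 45000 UMIs removed deep cells. Without the cell filter the differentiated cluster led by *Krt77* and *Krt78* held 590 wildtype and 348 knockout cells, against 408 and 217 with it. The part of the removed cells in these shares was not tested. The differentiating keratinocytes, those with markers such as *Krt1* and *Krt10*, held 74.1% of all wildtype *Ptgs1* UMIs and 69.2% of those of the knockout. The same stage held 59.8% and 60.8% of *Hpgds* UMIs. *Ptges* was spread over the basal stage (37.7% of wildtype UMIs) and the differentiating stage (33.9%). *Ptgs2* was divided between keratinocytes (52.7% of wildtype and 47.3% of knockout UMIs) and fibroblasts (41.4% and 47.3%). *Ptgis* was counted almost wholly in fibroblasts, with 96.0% and 97.5% of its UMIs there. *Ptgds* was found mainly in melanocytes and in a follicle cluster led by *Krt75*. *Hpgd* had its largest share in fibroblasts, which held 48.0% of its wildtype UMIs, beside 35.5% in keratinocytes and 14.1% in macrophages. In the knockout these shares were 62.5%, 9.94% and 25.2%. Over all kept cells *Hpgd* was therefore not lower in the knockout, at 56.4 CPM in the wildtype against 69.1 CPM in the knockout (log2 ratio 0.29, interval 0.22 to 0.36).

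*Ptgs1* makes PGH2 without needing induction. Its level in keratinocytes was 370 CPM (13565 UMIs) in the wildtype and 359 CPM (8911 UMIs) in the knockout, a log2 ratio of -0.04 (interval -0.08 to -0.00). It climbed from basal to differentiating cells in both mice. In late differentiated cells, led by *Lce1a2* and *Lce1b*, it was lower than in basal cells. They held 6 of 916445 UMIs in the wildtype and 6 of 618340 in the knockout. Basal cells held 71.4 CPM in the wildtype against 70.8 CPM in the knockout, and differentiating cells 722 and 701 CPM. Within differentiation, the sub-cluster led by *Krt1* and *Mt4* held 548 and 547 CPM, and that led by *Serpina12* and *Ifitm6* held 855 and 892 CPM. The step between basal and differentiating cells was thus far larger than any difference between the mice within either stage. Upper follicle cells, marked by *Krt79*, held 216 and 198 CPM. Bulge and germ cells held 14.2 and 19.2 CPM, the lowest *Ptgs1* among the larger stages. Among 10 keratinocyte sub-clusters with at least 50 UMIs of *Ptgs1*, 6 were lower and 4 higher in the knockout. Past the size rule were 3 downward and 1 upward. The basal sub-cluster led by *Ccl2* and *Pdk4* was lower, at 51.4 CPM in the wildtype against 33.0 CPM in the knockout (log2 ratio -0.63, interval -1.10 to -0.19). The proliferating sub-cluster gave -0.61 (interval -1.33 to 0.06). The mixed sub-cluster led by *Retnla* and *H2-Ab1* gave -0.72 and that led by *Col1a1* and *Col1a2* gave 0.69.

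Outside the epidermal keratinocytes, *Ptgs1* was high in Langerhans and dendritic cells, at 546 CPM in the wildtype against 507 CPM in the knockout (log2 ratio -0.11, interval -0.31 to 0.10). Fibroblasts held 40.7 and 42.0 CPM and macrophages 36.6 and 46.6 CPM. One fibroblast cluster, led by *Sfrp2* and *Mgp*, went from 54.8 to 27.3 CPM (interval of the log2 ratio -1.40 to -0.61). In this cluster 15.5% of all genes were past the size rule. Its 3 leading genes differed between the mice, with *Sfrp2* at 2808 and 670 CPM, *Mgp* at 795 and 1671 CPM and *Ccn5* at 1790 and 1287 CPM. Whether it holds the same kind of fibroblast in both mice was not tested.

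*Ptgs2*, the inducible cyclooxygenase, had a near-equal level in keratinocytes as a whole, 604 CPM (22151 UMIs) in the wildtype and 636 CPM (15793 UMIs) in the knockout (log2 ratio 0.08, interval 0.05 to 0.11). This sum covered stages that went in opposite directions. Differentiating cells held 319 CPM in the wildtype against 494 CPM in the knockout (log2 ratio 0.63, interval 0.57 to 0.69), a ratio that was 0.35 after thinning and then short of the size rule. Bulge and germ cells, the follicle compartment that holds hair stem cells, held 568 and 268 CPM (log2 ratio -1.08, interval -1.25 to -0.92). Basal cells held the highest *Ptgs2* of the keratinocyte stages, 1402 and 1265 CPM (log2 ratio -0.15, interval -0.19 to -0.11). Proliferating cells, led by *Mki67*, held 647 and 666 CPM. Past the size rule were 7.99% of all genes in differentiating and 11.9% in bulge and germ cells, with 3.93% and 5.09% upward and 4.06% and 6.86% downward. Within the differentiating stage, the *Krt1* and *Mt4* sub-cluster (659 to 832 CPM) and the *Serpina12* and *Ifitm6* sub-cluster (60.2 to 76.1 CPM) each gave a ratio of 0.34. The first held 1000 wildtype and 904 knockout cells and the second 350 and 201, so the makeup of the stage moved with its ratio.

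Sub-clusters of keratinocytes split *Ptgs2* further. Of 12 with at least 50 UMIs, 8 were lower and 4 higher in the knockout, and 8 and 3 had counting intervals clear of 0. Both bulge and germ sub-clusters were lower, that led by *Krt24* and *Angptl7* at 713 to 346 CPM and that led by *Ramp1* and *Sncg* at 281 to 133 CPM. The upper follicle held both directions. Its *Krt79* and *Cst6* sub-cluster went from 87.6 to 32.8 CPM (log2 ratio -1.41, interval -1.76 to -1.09). Its *Pthlh* and *Megf6* sub-cluster went from 309 to 474 CPM (log2 ratio 0.62, interval 0.40 to 0.83). In the basal stage, the sub-clusters led by *Has3* and *Bmp4* (2087 to 1900 CPM) and by *Slc16a3* and *Tnfsf18* (1568 to 1358 CPM) differed little, and the *Ccl2* and *Pdk4* sub-cluster went from 174 to 81.4 CPM. When the wildtype proportions of stages were used for both mice, the keratinocyte ratio of *Ptgs2* was -0.11 in place of 0.08.

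Fibroblasts held a higher *Ptgs2* level than keratinocytes in both mice, and less of it in the knockout: 1216 CPM (interval 1198 to 1235) in the wildtype and 857 CPM (interval 844 to 871) in the knockout. The log2 ratio was -0.50 (interval -0.54 to -0.47). It was -0.26 after thinning of cells to 2000 UMIs, short of the size rule, and -0.68 with wildtype proportions of the clusters in both mice. Of 6 enzymes with at least 50 fibroblast UMIs, *Ptgs2* was past the size rule downward and *Hpgds*, on 47 and 94 UMIs, upward, where 6.75% and 8.52% of all genes were (15.3% in either direction). The *Hpgds* ratio of fibroblasts, 0.63, turned to -0.24 when cells were thinned to 2000 UMIs. The 14 keratinocyte markers summed to 2617 and 2250 CPM in fibroblasts (12 of 14 lower), and their part in the *Ptgs2* ratio was not tested. Most of the fibroblast *Ptgs2* came from 1 cluster, led by *Pla1a* and *Ptx3*, which held 36.5% of all wildtype *Ptgs2* UMIs. Its level was 2633 CPM in the wildtype against 1566 CPM in the knockout (log2 ratio -0.75, interval -0.78 to -0.72). It held 569 of 1850 wildtype fibroblasts and 1172 of 2804 knockout fibroblasts. Its leading genes were *Pla1a* at 1531 and 1373 CPM, *Ptx3* at 4678 and 2342 CPM and *Efhd1* at 461 and 821 CPM. The median depth was 9521 UMIs per wildtype and 7089 per knockout cell. Whether its cells are of the same kind in both mice was not tested. After thinning each cell to 2000 UMIs, *Ptgs2* was detected in 78.2% of the wildtype cells of this cluster and in 64.0% of its knockout cells (87.5% and 77.6% without thinning). The clusters led by *Sfrp2* and *Mgp* (527 to 422 CPM) and by *Col1a1* and *Cyp2f2* (133 to 122 CPM) were lower by less. Over all fibroblasts the thinned share was 33.4% and 34.8% (40.6% and 43.3% without thinning), a share that went against the CPM and from which no order is read.

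*Ptgs2* belongs to the genes that cells switch on early after a stimulus, and the 9 early genes *Fos*, *Fosb*, *Jun*, *Junb*, *Egr1*, *Ier2*, *Atf3*, *Dusp1* and *Zfp36*, listed after values were seen, were summed beside it. In fibroblasts their sum was 12806 CPM in the wildtype against 14819 CPM in the knockout (7 of 9 higher), the opposite direction to *Ptgs2*. In bulge and germ cells it was 39750 and 38825 CPM (6 of 9 lower). In differentiating cells, where *Ptgs2* was higher, it was 11354 and 10029 CPM (all 9 lower). The part of these genes in the *Ptgs2* levels was not tested. The paper's methods state that skin was minced and dissociated with enzymes in the warm before the assay. All levels are thus those after dissociation and not of resting skin, and the part of this step was not tested.

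Macrophages had 359 CPM of *Ptgs2* in the wildtype and 263 CPM in the knockout (log2 ratio -0.45, interval -0.55 to -0.35). This ratio ranged from -1.03 with cells gated by their own markers to -0.19 without the highest 5% of Scrublet scores, a score for doublets, and was -0.88 with wildtype proportions of the clusters. It was lower in each of their 3 clusters, from 355 to 157 CPM in that led by *Ccl8* and *Cd209b*, from 195 to 34.7 CPM in that led by *Fcna* and *Lyve1*, and from 790 to 675 CPM in that led by *Ighm* and *Lyz1*. In the last of these the ratio was -0.23 and the median of all its genes -0.29. Its leading gene *Ighm*, singled out after its values were seen, held 140 CPM in the wildtype against 61538 CPM in the knockout, so the name describes its knockout cells. In the *Ccl8* and *Cd209b* cluster the keratinocyte list went the same way, at 5200 and 3422 CPM, and its part was not tested. Langerhans and dendritic cells went the other way, at 97.4 and 211 CPM on 81 and 143 UMIs (log2 ratio 1.11, interval 0.71 to 1.53). After thinning, 2 such cells in each library had both *Ptgs2* and *Ptges*, or 25% of wildtype and 20% of knockout cells with *Ptgs2*. The *Ptgs2* UMIs thus came from few cells, which the counting interval does not cover. T and NK cells held 158 and 101 CPM on 79 and 42 UMIs (log2 ratio -0.63), where the fibroblast list summed to 6212 and 599 CPM (8 of 8 lower). The part of this list was not tested, and with cells gated by their own markers the ratio was 0.21. In skeletal muscle 78 *Ptgs2* UMIs came from 31 wildtype cells and 0 from the 5 knockout cells, which allows up to 70.8 CPM.

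**Figure D2:**
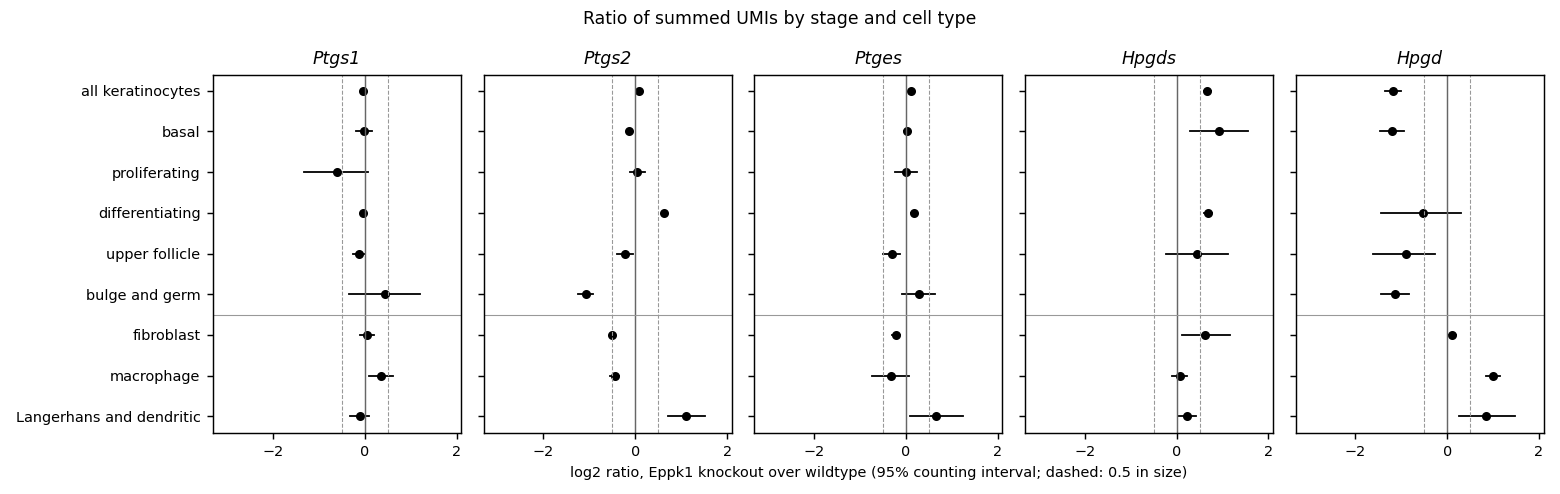
Log2 ratio of knockout over wildtype, with its exact 95% counting interval, for *Ptgs1*, *Ptgs2*, *Ptges*, *Hpgds* and *Hpgd* in keratinocytes, 5 keratinocyte stages, fibroblasts, macrophages and Langerhans and dendritic cells, 1 library per genotype, where at least 50 UMIs were counted. *Hpgd* lay below 0 in each keratinocyte stage drawn and above 0 in fibroblasts, macrophages and Langerhans and dendritic cells, and *Ptgs2* lay at 0.63 in differentiating and -1.08 in bulge and germ cells.

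*Ptges*, the synthase that makes PGE2 from PGH2, was near equal in keratinocytes, 290 CPM (10654 UMIs) in the wildtype and 314 CPM (7807 UMIs) in the knockout (log2 ratio 0.12, interval 0.07 to 0.16). The basal stage held 490 and 498 CPM, and proliferating cells 308 and 308 CPM. Differentiating cells held 287 and 324 CPM. Follicle stages were lower, with 115 and 92.6 CPM in the upper follicle and 65.4 and 79.0 CPM in bulge and germ cells. Its ratio was under 0.5 in size in these 5 stages, but that of the upper follicle was -0.70 without integration. Fibroblasts held 138 and 119 CPM (log2 ratio -0.21, interval -0.30 to -0.12), with 172 and 128 CPM in the *Pla1a* and *Ptx3* cluster. In macrophages *Ptges* was low, at 21.2 and 16.8 CPM, and their clusters went in opposite directions. In the *Ccl8* and *Cd209b* cluster it went from 43.5 to 16.6 CPM (log2 ratio -1.38, where 18.0% of all genes were past the size rule in either direction), where the keratinocyte list summed to 5200 and 3422 CPM, and its part was not tested. In the *Ighm* and *Lyz1* cluster it went from 7.04 to 24.6 CPM on 8 and 37 UMIs (log2 ratio 1.74, interval 0.68 to 3.12). Langerhans and dendritic cells held 57.7 and 91.6 CPM on 48 and 62 UMIs (log2 ratio 0.66), a ratio that was -0.98 without integration and -0.64 with cells gated by their own markers.

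*Ptgs2* and *Ptges* were often counted in the same keratinocytes. After thinning to 2000 UMIs, wildtype keratinocytes with a *Ptgs2* UMI had a *Ptges* UMI in 53.8% of cases, against 28.4% of the other keratinocytes. The knockout gave 55.8% and 33.2%. *Hpgd* showed the reverse pattern: 3.13% of wildtype keratinocytes with a *Ptgs2* UMI had a *Hpgd* UMI, against 8.34% of the others, and 0.886% against 3.92% in the knockout. The basal stage gave 3.35% against 12.2% in the wildtype and 0.808% against 6.91% in the knockout. Wildtype bulge and germ cells gave 13.1% against 26.1%. The gap was small in the wildtype upper follicle (2.74% against 3.15%) and absent in wildtype differentiating cells (0.532% against 0.544%). Mixed sub-clusters of the knockout went the other way, at 12.5% against 7.14%, on 2 cells with both genes. Fibroblasts gave 10.0% against 23.8% in the wildtype and 8.15% against 24.5% in the knockout. These shares describe cells of 1 mouse each, and clusters with different levels of both genes are mixed in them.

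*Hpgds* is known as the PGD2 synthase of blood-derived cells. Langerhans and dendritic cells held 560 CPM in the wildtype against 657 CPM in the knockout, and mast cells 329 and 340 CPM. Keratinocytes nevertheless held most of its UMIs, 2388 in the wildtype and 2567 in the knockout, at 65.1 CPM (interval 62.5 to 67.7) and 103 CPM (interval 99.4 to 107). The log2 ratio was 0.67 (interval 0.59 to 0.75). Differentiating cells carried it, with 141 CPM in the wildtype against 226 CPM in the knockout (log2 ratio 0.68, interval 0.60 to 0.77). The *Krt1* and *Mt4* sub-cluster went from 189 to 282 CPM and the *Serpina12* and *Ifitm6* sub-cluster from 105 to 157 CPM, a ratio of 0.58 in each. After thinning, 20.2% of wildtype and 30.9% of knockout differentiating cells had a *Hpgds* UMI (41.3% and 54.3% without thinning). In fibroblasts, which should lack the gene, the thinned shares were 0.704% and 0.652% at medians of 6981.5 and 6267.5 UMIs per cell. Keratinocytes had medians of 4511 and 4558.5 UMIs. Langerhans and dendritic markers were measured beside *Hpgds* and came to 411 and 414 CPM in differentiating cells. Of this, *Epcam* held 369 and 368 CPM and *Cd74* 27.3 and 29.6 CPM. The part of Langerhans and dendritic RNA in the *Hpgds* levels and ratio was not tested.

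*Hpgds* was much lower in the other keratinocyte stages named by markers, and there its counts were small. Mixed sub-clusters, led by genes of another type, held 135 of 1158453 UMIs in the wildtype and 132 of 848167 in the knockout. Their level was closer to that of differentiating than of basal cells. Basal cells held 39 UMIs in the wildtype and 54 in the knockout, or 3.93 and 7.44 CPM (log2 ratio 0.92, interval 0.30 to 1.55), near the fibroblast level of 3.28 and 5.10 CPM. Upper follicle cells held 43 and 38 UMIs (7.74 and 10.6 CPM). Bulge and germ cells held 11 and 4 UMIs. Of 10 sub-clusters with at least 10 *Hpgds* UMIs, 9 were higher in the knockout, 5 of them with intervals above 0. Langerhans and dendritic cells gave a ratio of 0.23 (interval 0.04 to 0.42), macrophages 0.07 (interval -0.09 to 0.23) and mast cells 0.04 (interval -0.52 to 0.62). The ratio of keratinocytes was thus larger than in the immune types that had the highest levels, a difference that could not be tested with 1 mouse each. In T and NK cells *Hpgds* was counted 27 times in the wildtype and 13 times in the knockout, nearly all in the cluster led by *Tcrg-V5* and *Trdc* (24 and 13 UMIs), genes of gamma-delta T cells.

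*Ptgs1* and *Hpgds* shared the differentiating stage, where *Hpgds* was found more often in cells with *Ptgs1*. Among wildtype differentiating cells with a *Ptgs1* UMI, 22.9% had a *Hpgds* UMI, against 15.9% of the others, after thinning. In the knockout the shares were 35.2% and 24.1%. The upper follicle gave 1.68% against 1.12% in the wildtype and 0% against 1.77% in the knockout. Both genes were also high in Langerhans and dendritic cells, and the part of their RNA or of doublets in these shares was not tested.

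*Ptgds*, the other PGD2 synthase, known from brain and pigment cells, was counted 134 times in 27 wildtype melanocytes and 42 times in 14 knockout melanocytes, at 2239 and 1642 CPM (log2 ratio -0.44, interval -0.98 to 0.06). Keratinocytes held 143 UMIs in the wildtype and 13 in the knockout, 3.90 and 0.524 CPM (log2 ratio -2.85, interval -3.84 to -2.08). Of these, 112 and 8 came from the *Krt75* and *Wfdc3* sub-cluster, which held 60 wildtype but only 12 knockout cells. Within it the level was 271 and 163 CPM (log2 ratio -0.66, interval -1.98 to 0.29). Without the follicle sub-clusters the keratinocyte ratio was 0.02, which rested on too few UMIs to be read. Basal cells held 2 and 0, differentiating cells 1 and 0 and mixed sub-clusters 0 and 2. Bulge and germ cells held 24 and 2 *Ptgds* UMIs (log2 ratio -2.39, interval below 0). With sub-clusters weighted by wildtype UMIs the keratinocyte ratio was -0.93. The number of cells in the *Krt75* and *Wfdc3* sub-cluster also moved with the keratinocyte level of *Ptgds*, and its part in the ratio was not tested.

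*Ptgis*, which makes prostacyclin, was counted in fibroblasts at 75.0 CPM (1074 UMIs) in the wildtype and 63.8 CPM (1175 UMIs) in the knockout (log2 ratio -0.23, interval -0.36 to -0.11). The *Pla1a* and *Ptx3* cluster that was rich in *Ptgs2* also held 78.6% of all wildtype *Ptgis* UMIs, at 151 and 112 CPM (log2 ratio -0.42, interval -0.56 to -0.29). The *Sfrp2* and *Mgp* cluster held 77.0 and 54.9 CPM, and the *Col1a1* and *Cyp2f2* cluster 1.80 and 2.05 CPM. Keratinocytes held 14 and 7 UMIs in all. Blood endothelial cells, another known site of prostacyclin synthesis, held 0 UMIs in 102 wildtype cells, which allows up to 12.2 CPM, and 4 UMIs in 58 knockout cells.

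*Hpgd*, the enzyme of inactivation, was counted in keratinocytes at 33.0 CPM (1212 UMIs, interval 31.2 to 34.9) in the wildtype and 14.5 CPM (361 UMIs, interval 13.1 to 16.1) in the knockout. The log2 ratio was -1.18 (interval -1.36 to -1.01). Late differentiated cells, a stage also named by its own markers, held 2 and 0 UMIs and are left out of the order. Among the other 5 such stages, *Hpgd* was highest in the wildtype in bulge and germ cells, at 182 CPM. Basal cells followed at 54.8, proliferating cells at 32.8 and upper follicle cells at 14.2, with 2.56 CPM in differentiating cells. The order was the same in the knockout, at 82.6 CPM in bulge and germ, 23.8 in basal, 9.67 in proliferating, 7.50 in upper follicle and 1.75 in differentiating cells. There the intervals of proliferating and upper follicle cells overlapped, with 8 and 27 UMIs. Mixed sub-clusters, kept out of this order, held 38.0 CPM in wildtype against 25.9 CPM in knockout cells (44 and 22 UMIs). Each of the 6 stages with at least 10 UMIs in all and at least 20 cells in each library was lower in the knockout by 0.5 or more. The *Krt75* and *Wfdc3* sub-cluster, with 60 and 12 cells, is not among them. It held 12 of 413352 UMIs in the wildtype and 1 of 49202 in the knockout. The ratio was -1.20 (interval -1.46 to -0.95) in basal and -1.13 (interval -1.45 to -0.83) in bulge and germ cells. It was -0.90 (interval -1.61 to -0.27) in the upper follicle and -1.70 (interval -3.09 to -0.61) in proliferating cells. Past the size rule downward were 3.92% of all genes in basal, 4.06% in differentiating, 4.92% in upper follicle, 6.86% in bulge and germ and 8.66% in proliferating cells, and 7.52% in mixed sub-clusters. In differentiating cells 39 and 18 UMIs gave -0.52 with an interval that reached 0.29, so no difference was detectable there at this depth.

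Of the 12 keratinocyte sub-clusters with at least 10 *Hpgd* UMIs in all and at least 20 cells in each library, 11 were lower in the knockout and 7 had intervals below 0. The exception was a small mixed sub-cluster led by *Retnla* and *H2-Ab1*. The highest wildtype level, 248 CPM, was in the *Krt24* and *Angptl7* sub-cluster of the bulge, at 111 CPM in the knockout. The *Ccl2* and *Pdk4* sub-cluster of the basal stage followed with 161 and 81.4 CPM. The largest ratio among sub-clusters with at least 50 UMIs, -2.05 (interval -3.07 to -1.23), was in the *Has3* and *Bmp4* basal sub-cluster, at 17.8 and 4.16 CPM. The smallest of these, -0.56 (interval -1.48 to 0.25), was in the *Ramp1* and *Sncg* sub-cluster, at 51.3 and 34.2 CPM. Giving every sub-cluster its wildtype weight left the keratinocyte ratio at -1.07. Leaving out the sub-clusters named as follicle and the *Krt75* and *Wfdc3* sub-cluster also gave -1.07. That setting kept the *Ccl2* and *Pdk4* sub-cluster, named basal with only 1 of 8 basal markers raised. Its *Hpgd* level was far above that of the *Has3* and *Bmp4* basal sub-cluster, and whether it is interfollicular was not tested.

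**Figure D3:**
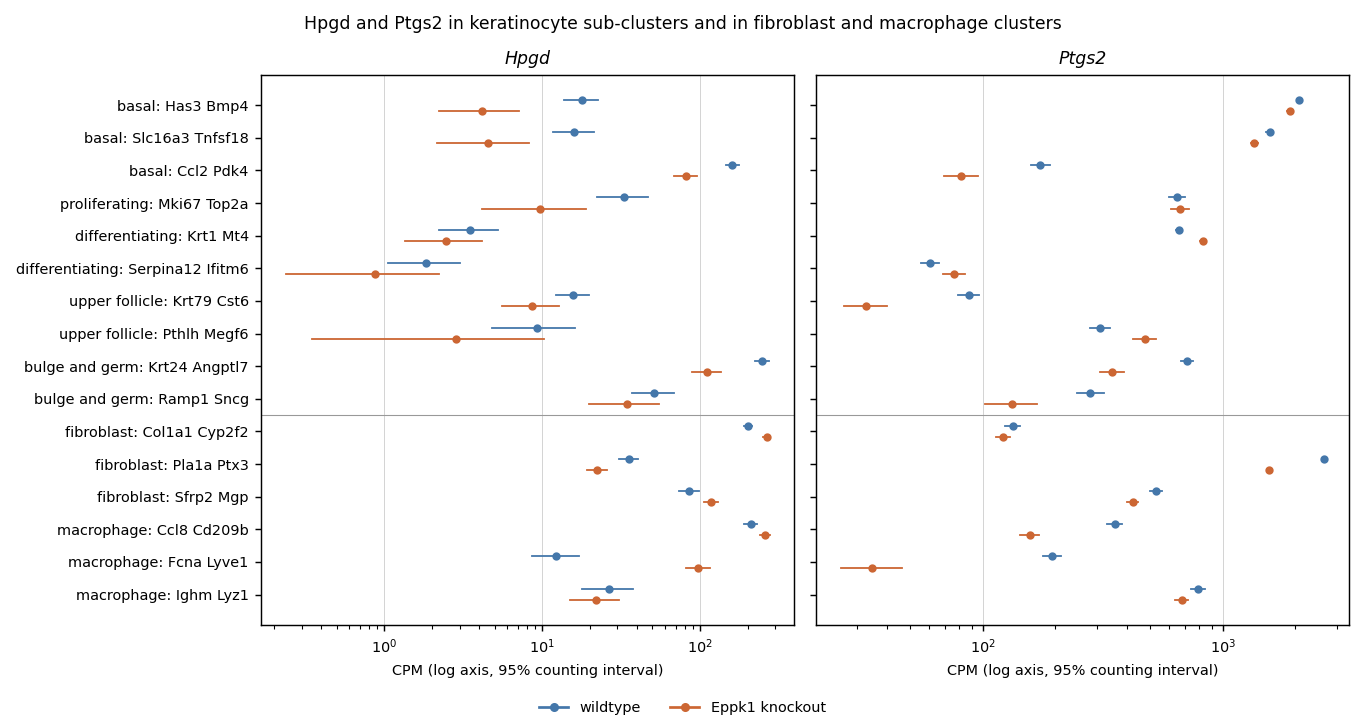
Levels of *Hpgd* and *Ptgs2* in CPM (log axis) in 10 keratinocyte sub-clusters and in the 6 fibroblast and macrophage clusters, named by their leading genes, wildtype and knockout side by side, 1 library each. *Hpgd* was lower in the knockout in each of the keratinocyte sub-clusters drawn, and went from 12.3 to 97.7 CPM in the *Fcna* and *Lyve1* macrophages, in which *Ptgs2* went from 195 to 34.7 CPM.

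The share of cells with a *Hpgd* UMI went the same way. After thinning it was 6.66% of wildtype and 2.86% of knockout keratinocytes (11.8% and 6.13% without thinning, with 575 and 501 shallower cells left out of the thinned shares). In bulge and germ cells it was 23.8% and 9.22% (30.6% and 17.6% without thinning). In differentiating cells it was 0.541% and 0.0944% (2.22% and 0.995% without thinning). T and NK cells, which should hold little of it, gave 1 of 92 cells (1.09%) in the wildtype and 0 of 69 in the knockout, which allows a share of up to 4.35%, at medians of 1817 and 1705 UMIs per cell before thinning. Fibroblasts hold abundant *Hpgd*, so fibroblast RNA in the keratinocyte sums was measured beside it. The 8 fibroblast markers summed to 521 CPM in wildtype against 625 CPM in knockout keratinocytes (7 of 8 higher, none at 0), with *Col1a1* at 176 and 212 CPM. The macrophage list summed to 77.0 and 73.6 CPM. The part of fibroblast RNA in the *Hpgd* ratio was not tested.

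Fibroblasts held *Hpgd* at 114 CPM (1636 UMIs) in the wildtype and 123 CPM (2269 UMIs) in the knockout, a log2 ratio of 0.11 (interval 0.02 to 0.20). The *Col1a1* and *Cyp2f2* cluster held 201 and 264 CPM (log2 ratio 0.39, interval 0.29 to 0.50), and the *Sfrp2* and *Mgp* cluster 85.4 and 117 CPM (log2 ratio 0.46, interval 0.21 to 0.71). The *Pla1a* and *Ptx3* cluster, the one with the most *Ptgs2*, held 35.5 and 22.4 CPM (log2 ratio -0.67, interval -0.96 to -0.38). In that cluster 25.7% of all genes were past the size rule. Whether the fibroblast clusters hold like cells in both mice was not tested.

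In macrophages *Hpgd* was higher in the knockout, at 79.5 CPM (interval 72.5 to 86.9) in the wildtype and 159 CPM (interval 149 to 169) in the knockout, a log2 ratio of 0.997 (interval 0.84 to 1.16). Among the 5 enzymes with at least 50 macrophage UMIs it was the 1 past the size rule (with wildtype proportions of the clusters *Ptgs2*, at -0.88, and *Ptges*, at -0.57, were past it too), where 21.3% of all genes were, 5.39% upward and 15.9% downward, and the median of all genes was -0.14. The *Ccl8* and *Cd209b* cluster, 330 wildtype and 633 knockout cells, held 209 and 259 CPM (log2 ratio 0.31, interval 0.13 to 0.49). The *Fcna* and *Lyve1* cluster, 241 and 234 cells, held 12.3 and 97.7 CPM on 36 and 135 UMIs (log2 ratio 2.97, interval 2.45 to 3.56). The *Ighm* and *Lyz1* cluster held 26.4 and 21.9 CPM. Over all macrophages the 8 macrophage markers summed to 19857 and 15684 CPM (7 of 8 lower), the Langerhans and dendritic list to 17702 and 32360 CPM (6 of 8 higher) and the fibroblast list to 3044 and 3290 CPM, and the part of these lists in the *Hpgd* ratio was not tested. With wildtype proportions of the 3 clusters in both mice the macrophage ratio was 0.78. The cells of the *Fcna* and *Lyve1* cluster were not alike in the 2 mice: 37.9% of all genes were past the size rule in it, the median depth was 11933 UMIs per wildtype and 5697 per knockout cell, and the Langerhans and dendritic list summed to 4359 and 21634 CPM with *Cd74* at 3113 and 15066 CPM. The fibroblast list in it summed to 1583 and 448 CPM, opposite to *Hpgd*, and the 9 early genes to 14555 and 20881 CPM. Without integration of the libraries its wildtype cells formed a cluster of their own, left unnamed, and the macrophage ratio of *Hpgd* was 0.17. Whether these are the same kind of macrophage in both mice was not tested.

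Langerhans and dendritic cells held *Hpgd* at 48.1 and 87.1 CPM on 40 and 59 UMIs (log2 ratio 0.85, interval 0.25 to 1.47). They had 3 of 5 enzymes past the size rule upward, *Hpgd*, *Ptgs2* and *Ptges*, and none downward, where 6.58% and 8.37% of all genes were (14.9% in either direction). The ratio of *Ptges* turned negative under 2 alternatives. Keratinocytes are the neighbours of Langerhans cells, and their marker list summed to 6437 and 7694 CPM in them (11 of 14 higher), and its part in these ratios was not tested. Sebaceous cells held 17 and 20 *Hpgd* UMIs. T and NK cells held 5 and 2 UMIs and mast cells 2 and 0. In the 53 wildtype and 72 knockout mast cells *Ptgs1* was counted 1 and 21 times (log2 ratio 3.37, interval 1.28 to 9.29). *Ptgs2* was counted 3 and 29 times (log2 ratio 2.60, interval 1.11 to 5.16) and *Ptges* 0 and 11 times. Each of these sums was under 50 UMIs over both libraries. Among 52 thinned knockout mast cells, 1 with *Ptges* made up 25% of those with *Ptgs1*, and 1 made up 33.3% of those with *Ptgs2*. These UMIs thus came from few cells, which the counting intervals do not cover, and no difference of mast cells is read. In mast cells the keratinocyte list summed to 5023 and 7692 CPM (11 of 14 higher), and its part was not tested.

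The wider pathway was read in keratinocytes from lists of named genes. Of 13 genes of arachidonate release with at least 50 UMIs, 1 was past the size rule upward and 1 downward, where 2.87% and 4.78% of all genes were (7.65% in either direction). The phospholipase *Pla2g2f*, known from differentiated epidermis, held 1160 CPM in the wildtype against 1130 CPM in the knockout, and *Plaat3* 103 and 84.6 CPM. Those past the size rule were the phospholipases *Pla2g3* (6.35 and 3.99 CPM, log2 ratio -0.67, interval -1.02 to -0.33) and *Pla2g2d* (1.91 and 3.06 CPM, log2 ratio 0.68, interval 0.20 to 1.17). The latter rested on 70 and 76 keratinocyte UMIs, and macrophages held 214 CPM of it in the wildtype against 478 CPM in the knockout (log2 ratio 1.16), whose part in the keratinocyte ratio was not tested. Of 8 other genes of prostanoid synthesis, none was past it, with *Ptges3*, the cytosolic PGE synthase, at 241 and 241 CPM, and *Akr1b3* at 52.0 and 62.0 CPM. Of 7 genes of transport and inactivation, none was past it. Of these, the transporter *Slco3a1* held 345 and 378 CPM, and *Ptgr1*, the reductase that acts after *Hpgd*, held 166 and 151 CPM.

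Among 4 prostanoid receptors with at least 50 UMIs, 1 was past the size rule upward and 1 downward. *Ptger4*, a receptor of PGE2, had the most keratinocyte UMIs of the 4 and held 247 and 298 CPM (log2 ratio 0.27, interval 0.22 to 0.31). *Ptgdr*, a receptor of PGD2, held 6.84 and 3.06 CPM on 251 and 76 UMIs (log2 ratio -1.15, interval -1.55 to -0.78), opposite in direction to *Hpgds*. *Ptger3*, another receptor of PGE2, held 1.44 and 2.22 CPM on 53 and 55 UMIs (log2 ratio 0.62, interval 0.05 to 1.19). Of 11 lipoxygenase and leukotriene genes, 1 was past the size rule upward and 1 downward. The epidermal lipoxygenases *Alox12e* (710 and 618 CPM) and *Alox12b* (177 and 162 CPM) differed by 0.20 or less on the log2 scale. *Cysltr1* held 2.40 and 4.03 CPM (log2 ratio 0.75) and *Ltc4s* 1.61 and 0.967 CPM (log2 ratio -0.72). Both levels were low, and the part of RNA from other cell types in these ratios was not tested. Median log2 ratios were -0.01 for release, 0.01 for synthesis, 0.00 for transport and inactivation, 0.16 for receptors and -0.11 for lipoxygenases, beside -0.02 for all genes. In macrophages 4 of 8 lipoxygenase and leukotriene genes were past the size rule downward and none upward, where 15.9% of all genes were downward, and their median was -0.45 beside -0.14 for all genes. In fibroblasts 1 of 9 was past it upward and 3 downward, where 8.52% and 6.75% of all genes were, with a median of -0.19 beside 0.05. Of the other lists in fibroblasts, 1 of 11 release genes was upward and 3 downward (median 0.12). Of 5 receptors, 1 was downward (median -0.41). Of 7 synthesis genes none was past the size rule, and of 7 transport genes 1 was downward, with medians of 0.19 and 0.07. In macrophages the release, synthesis and transport lists each had 1 gene upward and 2 downward, of 7, 8 and 8. Of 3 receptors there, 1 was upward. Among all macrophage genes 5.39% were upward and 15.9% downward, and counts in lists this short are not read as a shift.

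**Figure D4:**
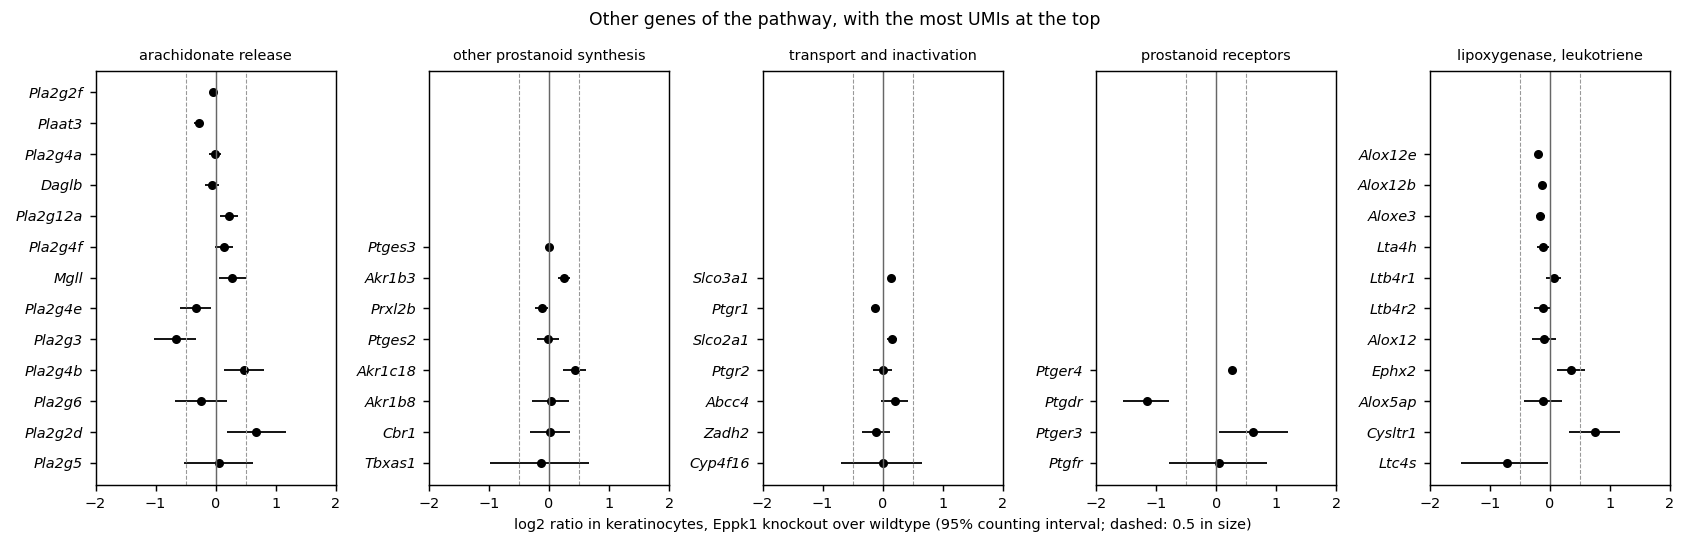
Log2 ratio of knockout over wildtype in keratinocytes for each pathway gene with at least 50 UMIs, in 5 lists, 1 library per genotype; dashed lines mark 0.5 in either direction. Most genes lay between the lines, and *Ptgdr*, at -1.15, was the lowest.

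The genes whose levels followed each enzyme most closely were sought over 26 columns, 13 cell types and stages in each of the 2 libraries, among 12281 genes. The correlations (Pearson, of log2 of CPM plus 1) describe columns that share a library and have no p-value. *Hpgd* was followed by *Tgfbi* (0.84), *Rab34* (0.81) and *Aff3* (0.80). *Hpgds* was followed by *Slc9a7* (0.85), *Grb2* (0.84) and *Grk2* (0.82), and *Ptgs1* by *Hcar2* (0.86), *Dlg2* (0.83) and *Sc5d* (0.82). *Ptgs2* was followed by *Mt2* (0.91), *Prss23* (0.91) and *Htra1* (0.88), and *Ptges* by *Lrp4* (0.96), *Met* (0.92) and *Igfbp3* (0.92). *Ptgis* was followed by *P4ha3* (0.96), *Tspan11* (0.94) and *Rnase10* (0.93). *Ptgds* was followed by the pigment genes *Dct* (0.88), *Tyrp1* (0.78) and *Pmel* (0.74). Melanocytes (27 and 14 cells) and the *Krt75* and *Wfdc3* sub-cluster (60 and 12 cells) were not among the columns, which needed 20 cells in each library. The columns used held few *Ptgds* UMIs, with 24 and 2 in bulge and germ cells as the most. Its correlations are therefore not read as a pattern over cell types.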

How the data were processed

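The authors made the gene tables with Cell Ranger 8.0.1 on mm10 (GRCm38) from a probe-based assay of fixed cells (10x Genomics Flex) and deposited 1 table of UMI counts per library, by gene and called cell and not normalized. The filters stated in the study's methods had not been applied to them. Those filters (UMIs per cell from 200 to 45000, genes from 100 to 7500, a mitochondrial share up to 10%) were applied here, and 13 mitochondrial genes were removed. Cells were clustered with R 4.3.3 and Seurat 5.3.0 (log-normalization to 10000, 2000 variable features without the 7 enzymes, pathway genes and *Eppk1*, 50 principal components, RPCA integration, Louvain at a resolution of 0.5, since none is stated). Keratinocytes were clustered again for stages. A cluster got a name where 3 or more markers of a list were present in 25% of its cells or more and no other list had more markers among its 10 leading genes. Some named clusters had none of their own there. Clusters with over 95% of cells from 1 library stayed unnamed, and mixed keratinocyte sub-clusters, led by genes of another type, were kept and named as mixed. Cells of whole skin were not enriched or sorted.

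UMIs were summed per library and type and given as CPM with exact Poisson intervals. Ratios have exact conditional intervals at the 95% level after adding 0.5 UMI, and a sum of 0 allows up to 3 UMIs. Intervals cover counting error only. Genes past the size rule had a log2 ratio of 0.5 or more in size, among genes with at least 50 UMIs over both libraries. Depth limited enzymes with few UMIs, since keratinocytes held 36701188 and 24824832 UMIs. Shares of cells were taken after thinning to 2000 UMIs. Scrublet (scanpy 1.11.5) called 0 wildtype and 204 knockout cells, so doublets were left in. The study's MAST test treats cells as replicates and was not used. Python 3.11.15, numpy 2.4.6, pandas 2.3.3, scipy 1.17.1 and edgeR 4.0.16 (TMM scaling only) were used, and the procedure was tested on simulated data. Sequences came from RefSeq promoter windows, which held 6 of the 7 enzymes, all except *Ptgis*, and coordinates from GENCODE M21. The enzymes, lists and stages were chosen with earlier results of these data known. All 7 enzymes are described; of each pathway list the 2 genes with the most keratinocyte UMIs and each gene past the size rule are named, and of each enzyme the 3 genes most like it.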

Additional observations from a re-analysis of the deposited data

Results flagged for a closer look

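The enzymes *Hpgd* and *Ptgs2* went in opposite directions in different cell types. *Hpgd* had a log2 ratio of knockout over wildtype of -1.18 in keratinocytes, against 0.997 in macrophages and 0.85 in Langerhans and dendritic cells. The macrophage ratio of *Hpgd* was 0.17 without integration of the libraries, short of the size rule. *Ptgs2* had a ratio of 1.11 in Langerhans and dendritic cells, against -0.63 in T and NK cells and -0.50 in fibroblasts. The T and NK ratio of *Ptgs2* was 0.21 with cells gated by their own markers (the fibroblast list there summed to 6212 and 599 CPM), and the fibroblast ratio was -0.26 after thinning. In the 145 wildtype and 112 knockout Langerhans and dendritic cells, *Ptgs2* rested on 81 and 143 UMIs and *Hpgd* on 40 and 59. In the main processing each ratio had a counting interval clear of 0, which does not cover UMIs gathered in few cells. With 1 mouse per genotype the difference between types was not tested.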

How the results depend on the processing

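No paired analysis was possible because each genotype has 1 library and the labels carry no replicate numbers, and for the same reason no replicate could be left out. The keratinocyte ratio of *Hpgd* ranged from -1.43 (each cell thinned to 2000 UMIs) to -1.07, that of *Hpgds* from 0.58 to 0.92, and neither changed direction or crossed the size rule under any alternative run. Thinning also gave 0.92 for *Hpgds*, 0.10 for *Ptgs1*, 0.026 for *Ptgs2* and -1.77 for *Ptgds*. A mean over cells gave 0.87 for *Hpgds*, 0.086 for *Ptgs1*, 0.0057 for *Ptgs2* and 0.16 for *Ptges*. Without a cell filter *Hpgds* was 0.59 and *Ptgs1* 0.041. Without the highest 5% of Scrublet scores *Ptgs2* was 0.13. With sebaceous clusters counted as keratinocytes *Ptgs1* was -0.089, *Ptgs2* 0.029 and *Ptges* 0.069. With stages weighted by wildtype cells *Ptgs2* was -0.11, *Ptges* 0.042 and *Ptgds* -1.08. Weighting sub-clusters by wildtype UMIs, chosen after seeing the data, gave 0.58 for *Hpgds*, 0.015 for *Ptgs1*, -0.11 for *Ptgs2*, -0.011 for *Ptges* and -0.93 for *Ptgds*. Leaving out follicle sub-clusters, chosen likewise, gave -0.085 for *Ptgs1* and 0.023 for *Ptgds*, the latter on too few UMIs to be read. Past the size rule were 902 genes in keratinocytes, 3804 without a filter on low counts and 21 among genes with a UMI in 25% of the cells of a library. In single types and stages, 335 of 408 alternatives over 42 results stayed within the counting interval of the value, 69 left it and 4 turned its direction: *Ptges* in Langerhans and dendritic cells was -0.98 without integration and -0.64 with cells gated by their own markers, *Ptgs2* in T and NK cells was 0.21 under that gate, and *Hpgds* in fibroblasts was -0.24 after thinning. The macrophage ratio of *Hpgd* ranged from 0.17 to 1.22. The causes were not tested. The missing spread between mice limits every comparison. Counts under 50 UMIs limit *Ptgis* outside fibroblasts, and *Ptgds* outside melanocytes and the keratinocytes led by *Krt75*.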
